A study of Homo sapiens with 9 samples.

Results

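The machinery that carries a cell through the G1 phase of its cycle was followed here through 10 genes: the D-type cyclins CCND1, CCND2 and CCND3, their kinases CDK4 and CDK6, the E-type cyclins CCNE1 and CCNE2, their kinase CDK2, the inhibitor CDKN1B (p27) and SKP2. The genes were taken by symbol from a deposited table of 20323 genes, which holds all 10. Where a symbol stood on several rows, the row with the largest summed count was used. RNA sequencing was done on 9 libraries of HKC-8, an established human proximal tubular epithelial cell line from the kidney, in 3 groups of 3. The libraries labelled Wnt1_KP6 came from cells that received KP6 and a plasmid encoding Wnt1, a secreted ligand. KP6 is a peptide derived from the kidney protein Klotho. Those labelled Wnt1 came from cells given the Wnt1 plasmid alone, and the control libraries came from cells given the empty vector pcDNA3. All groups share the cell line, and the labels give no dose, time or transfection efficiency. The study's title names Wnt/beta-catenin and ATF3 signalling and mitophagy in kidney injury, so the design asks what the Wnt1 plasmid does against empty vector and what KP6 adds to it.

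D-type cyclins bind CDK4 or CDK6, and E-type cyclins bind CDK2. The resulting kinases phosphorylate the RB protein, which releases E2F transcription factors and commits the cell to DNA synthesis. p27 binds and inhibits cyclin E-CDK2, and SKP2 is the F-box subunit of an SCF ubiquitin ligase that marks phosphorylated p27 for destruction. Much of this control acts on protein, which was not measured here. In tubular epithelium these genes are known for the repair divisions and the cell cycle arrest that follow injury, and CCND1 is widely used as a target gene of Wnt/beta-catenin signalling.

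The libraries held 21199078 to 27507623 expected counts, and every library carries the batch label 1. The 10 genes had between 211 expected counts (CCNE1 in Wnt1_KP6 replicate 2) and 9787 (CDK6 in control replicate 2), and all 10 passed the filter on low counts that left 13153 genes. Separate cultures are not stated for the replicates, and a p-value here covers the spread between libraries, which may be technical. WNT1 itself had 1, 2 and 0 expected counts in the libraries labelled Wnt1_KP6, 0 in each library labelled Wnt1 and 0 in each control library, so its count bears out no plasmid label and every direction below rests on the labels alone. Replicate 1 stood apart from replicates 2 and 3 in every group: mitochondrial genes held 5.18% to 5.72% of its counts, against 7.01% to 7.97% in the other 6 libraries. By the chi-square per degree of freedom of their counts over genes, Wnt1_KP6 replicate 1 and Wnt1 replicate 1 were about as alike (3.52) as replicates 2 and 3 of Wnt1_KP6 (3.34) or of Wnt1 (3.11). Replicates 2 and 3 of control differed more (13.6), and every other pair was at 39.4 or above. Differences are therefore given for all libraries, for each replicate number and for replicates 2 and 3 alone. Of 12 kidney epithelial and proximal tubule markers 6 averaged over 1 CPM (expected counts scaled by the library total), among them PAX8 at 659 CPM and KRT8 at 379 CPM, while the tubule genes LRP2, AQP1 and SLC34A1 and the cadherin CDH1 were under 0.1 CPM. The summed epithelial markers were at 1727 to 1842 CPM in Wnt1_KP6, 1696 to 1772 CPM in Wnt1 and 1533 to 1663 CPM in control, and the part of this shift in the results was not tested. Fibroblast markers summed to 17.99 to 21.6 CPM in Wnt1_KP6, 15.5 to 20.6 CPM in Wnt1 and 21.6 to 40.1 CPM in control, with COL1A1 the single marker over 1 CPM in the mean of all 9 libraries. COL1A2 reached 7.26 CPM, COL3A1 3.61 CPM and DCN 1.40 CPM in control, and LUM reached 1.71 CPM in Wnt1_KP6, 2.40 CPM in Wnt1 and 2.36 CPM in control. The part of these in the results was not tested. Endothelial markers summed to at most 0.244 CPM and immune markers to at most 0.473 CPM in any library, with KDR, PTPRC and CD3E at 0.

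Among the G1 genes followed, SKP2 passed the test over all 9 libraries. It fell by 34.3% in Wnt1_KP6 against control and was the 1 gene of the 10 past an adjusted p of 0.05 in that comparison, where 30 of the 13153 tested genes (0.228%) passed. None of the 10 passed in Wnt1 against control, where 16 of all tested genes (0.122%) did, and none passed in Wnt1_KP6 against Wnt1, where 0 of all tested genes (0%) did. At an unadjusted p under 0.05, 3 of the 10 genes and 1475 of all tested genes were found in Wnt1 against control, and 0 of the 10 and 363 of all in Wnt1_KP6 against Wnt1. In Wnt1_KP6 against control it was 2 of the 10 and 2076 of all. CCND2 counted in both comparisons with control on its row with the larger summed count. On its other row it did not (edgeR, unadjusted p = 0.896 in Wnt1 and 0.345 in Wnt1_KP6). For CCND1, replicate 1 stood further from replicates 2 and 3 of its own group than any groups stood from each other at the same replicate number, which was not so for SKP2. RNA from a whole dish is a bulk measure, in which fewer cells that express a gene and less RNA per cell cannot be told apart.

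**Figure D1:**
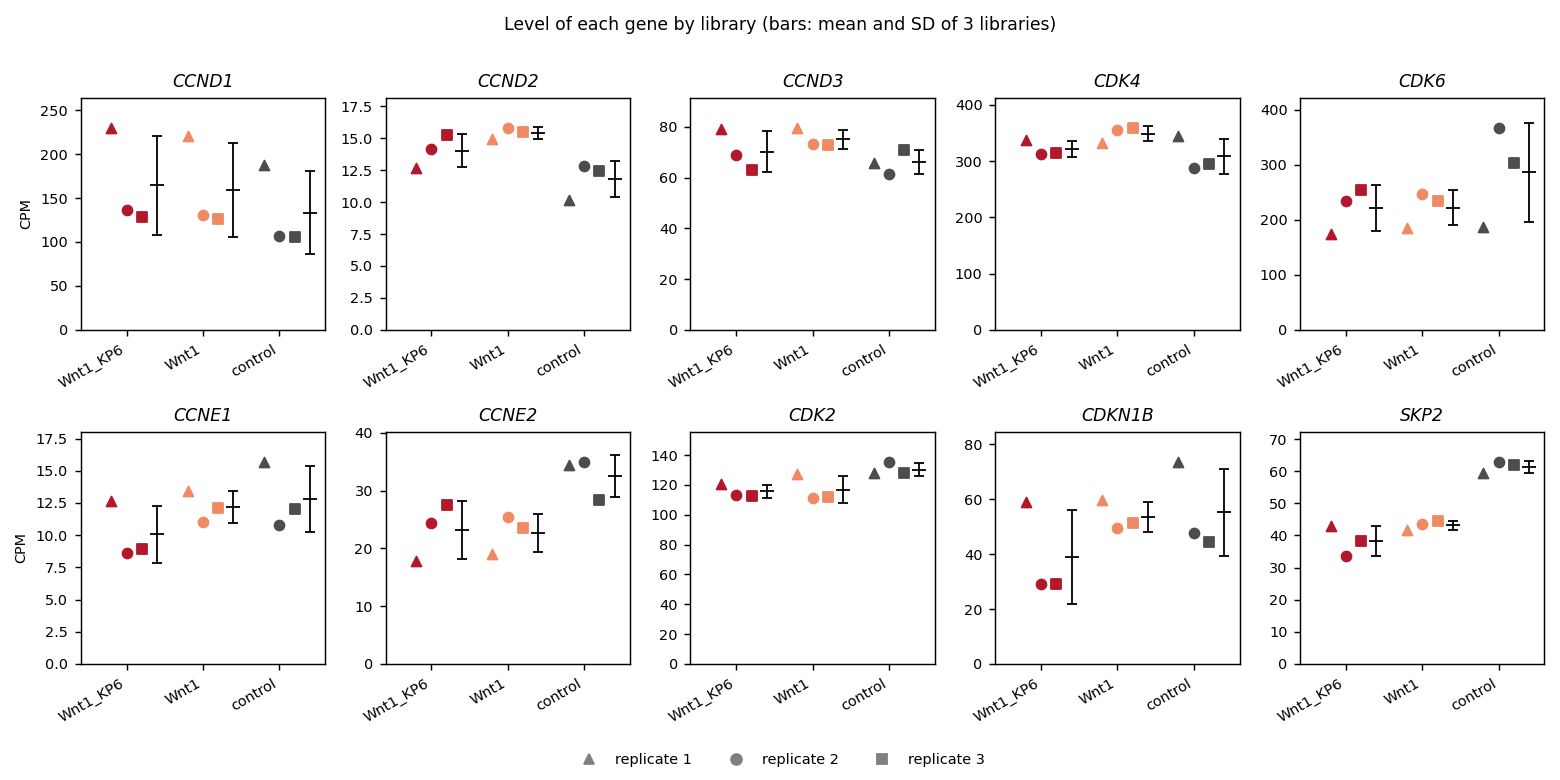
Level of each of the 10 genes in CPM (y axes, linear, from 0) in every library, with the groups Wnt1_KP6, Wnt1 and control from left to right, triangles for replicate 1, circles for replicate 2, squares for replicate 3 and bars for the mean ± SD of 3 libraries. SKP2 stays between 33.6 and 44.4 CPM in the 6 libraries with the Wnt1 plasmid, against 59.3 to 62.8 CPM in control, while replicate 1 is the highest library of each group for CCND1 and the lowest for CDK6.

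SKP2 is the receptor subunit that brings p27 to the SCF ligase (ENSG00000145604, chromosome 5, 36151989 to 36184319, plus strand, hg38). Its exons overlap no other annotated gene, but its expected count was whole in 0 of 9 libraries, so its level rests on reads shared out by estimate. The window from 250 bases before to 50 bases after its RefSeq start (GRCh38.p14, 67.3% G and C, against a median of 58.7% over 35116 such windows) is shown because SKP2 was the gene that passed the test, with the window of its substrate gene CDKN1B (62.3% G and C) for comparison. Both are plus-strand windows, chr5:36151861-36152160 and chr12:12717118-12717417, written 5′ to 3′. There are no capitals because none of the motifs searched on both strands matched: the E-box CACGTG, the E2F sites TTTCCCGC, TTTCGCGC, TTTGCCGC and TTTGGCGC, the CRE TGACGTCA, the AP-1 site TGANTCA and the FOXO site GTAAACA. Of all windows 7.26% hold the E-box, 3.32% an E2F site, 1.85% the CRE, 7.71% the AP-1 site and 3.42% the FOXO site.
SKP2: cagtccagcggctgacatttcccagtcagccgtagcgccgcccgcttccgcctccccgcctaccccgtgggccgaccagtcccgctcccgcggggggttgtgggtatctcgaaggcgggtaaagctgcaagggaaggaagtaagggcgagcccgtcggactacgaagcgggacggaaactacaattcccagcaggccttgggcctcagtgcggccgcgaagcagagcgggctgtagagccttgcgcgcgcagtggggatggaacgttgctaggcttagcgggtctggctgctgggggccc
CDKN1B: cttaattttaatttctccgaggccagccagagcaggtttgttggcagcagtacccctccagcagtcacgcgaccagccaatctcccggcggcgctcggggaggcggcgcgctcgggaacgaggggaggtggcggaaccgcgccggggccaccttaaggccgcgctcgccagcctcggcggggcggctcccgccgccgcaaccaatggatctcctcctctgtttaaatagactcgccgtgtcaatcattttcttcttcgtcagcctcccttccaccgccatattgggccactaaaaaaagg

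SKP2 stood at 42.9, 33.6 and 38.2 CPM in Wnt1_KP6 replicates 1, 2 and 3, at 41.6, 43.4 and 44.4 CPM in the Wnt1 libraries and at 59.3, 62.8 and 61.9 CPM in control. Every library given the Wnt1 plasmid lay below every control library, and the Wnt1_KP6 and Wnt1 libraries overlapped. In Wnt1_KP6 against control the log2 fold change was -0.61 ± 0.09 (SE, adjusted p = 0.0468), with differences of -0.43, -0.79 and -0.61 between same-numbered libraries. The value was larger in size without replicate 1, at -0.70 ± 0.08 (adjusted p = 1.65e-05), and DESeq2 gave an adjusted p of 1.77e-06. Against control, the libraries labelled Wnt1 had a log2 fold change of -0.48 ± 0.09, with -0.48, -0.49 and -0.47 by replicate number. That difference missed the threshold across all 9 libraries (adjusted p = 0.114). It passed by DESeq2 (0.000781), in replicates 2 and 3 alone (0.000558) and without control replicate 1. Between Wnt1_KP6 and Wnt1 the log2 fold change was -0.12 ± 0.09 (adjusted p = 1), with 0.05, -0.29 and -0.13 by replicate number, so no step between the groups with the plasmid was resolved. The call in Wnt1_KP6 against control was lost without any Wnt1 library (adjusted p = 0.0506, 0.121 and 0.114 without replicates 1, 2 and 3), without control replicate 2 (0.276) or 3 (0.153) and without Wnt1_KP6 replicate 2 (0.264) or 3 (0.217). It was also lost in limma on log2(FPKM + 1) (0.0914) and with these groups fitted alone (0.188), with the log2 fold change between -0.63 and -0.53 in all of these fits.

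CDKN1B encodes p27 (ENSG00000111276, chromosome 12, 12715058 to 12722371, plus strand). It had 58.9, 28.98 and 29.3 CPM in Wnt1_KP6, 59.6, 49.5 and 51.3 CPM in Wnt1 and 73.4, 47.7 and 44.3 CPM in control. Replicate 1 was the highest library of its group in all 3 groups, and Wnt1_KP6 replicates 2 and 3 were the lowest of the 9 libraries. In Wnt1_KP6 against Wnt1 the log2 fold change over all libraries was -0.42 ± 0.27 (adjusted p = 1). By replicate number it was -0.01, -0.70 and -0.72, and in replicates 2 and 3 alone -0.71 ± 0.08 (adjusted p = 2.91e-05). CDKN1B was thus lower with KP6 in replicates 2 and 3 and level in replicate 1. Against control, Wnt1_KP6 had -0.43 ± 0.27 (adjusted p = 0.489), or -0.56 ± 0.08 in replicates 2 and 3 alone (9.58e-05), with -0.28, -0.60 and -0.51 by replicate number. Wnt1 against control had -0.02 ± 0.27 (adjusted p = 0.994) and the replicate numbers disagreed in sign, at -0.27, 0.09 and 0.22. Both p27 RNA and the RNA of the ligase subunit that targets p27 protein were below control in all 3 same-numbered pairs of Wnt1_KP6 and control.

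The ratio of SKP2 to CDKN1B, formed from the length-scaled FPKM values, was 0.689, 1.16 and 1.22 in Wnt1_KP6, 0.639, 0.835 and 0.888 in Wnt1 and 0.691, 1.10 and 1.35 in control. The groups overlapped, and replicate 1 had the lowest ratio in each.

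Among the D-type cyclins, which link growth factor signals to the cycle, none passed the test over all 9 libraries. CCND1 (cyclin D1, ENSG00000110092, chromosome 11, 69641087 to 69654474, plus strand) had 229.6, 137 and 128 CPM in Wnt1_KP6, 221, 130.4 and 126 CPM in Wnt1 and 188, 107 and 105 CPM in control. It was higher in replicate 1 than in any replicate 2 or 3 of any group, and within each replicate number the order was Wnt1_KP6, Wnt1, control. Wnt1 against control gave a log2 fold change of 0.28 ± 0.30 (adjusted p = 0.800), with 0.26, 0.32 and 0.27 by replicate number, and it moved to -0.0095 without Wnt1 replicate 1 and to 0.59 without control replicate 1. Wnt1_KP6 against control gave 0.38 ± 0.30 (adjusted p = 0.613), with 0.32, 0.47 and 0.37, and it moved to 0.11 without Wnt1_KP6 replicate 1 and to 0.68 without control replicate 1. The differences between same-numbered libraries were thus near each other while the SE, which takes in the gap between replicate 1 and the rest, was about as large as the change. In replicates 2 and 3 alone CCND1 passed against control both in Wnt1_KP6 (0.42 ± 0.07, adjusted p = 0.000241) and in Wnt1 (0.30 ± 0.07, adjusted p = 0.00415). With a replicate block over all libraries the adjusted p was 0.0568 for Wnt1_KP6 against control and 0.126 for Wnt1 against control. Wnt1_KP6 against Wnt1 gave 0.09 ± 0.30 (adjusted p = 1), with 0.06, 0.14 and 0.10.

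CCND2 (cyclin D2) stands on 2 rows of the table, and its direction depended on the row. The row with the larger summed count (3075.72 against 2979.63 expected counts) is ENSG00000285901 on chromosome 12, 4273762 to 4405490, plus strand. GENCODE names it AC008012.1, a protein-coding gene, and 78.6% of its exon bases are shared on the same strand with CCND2 or TIGAR. The row ENSG00000118971, at 4273772 to 4305350 of the same strand, is the one GENCODE names CCND2. Neither row has a whole count in any library, so reads were shared out by estimate and the level of either is uncertain. For the larger row the sharing may take in TIGAR as well as CCND2. TIGAR averaged 17.6 ± 2.54 CPM in Wnt1_KP6, 13.4 ± 0.41 CPM in Wnt1 and 14.1 ± 2.54 CPM in control. Its log2 fold change was 0.41 ± 0.17 in Wnt1_KP6 against control (adjusted p = 0.275) and -0.05 ± 0.17 in Wnt1 against control (adjusted p = 0.956). The part of TIGAR in the CCND2 values was not tested. The larger row had 12.6, 14.2 and 15.3 CPM in Wnt1_KP6, 14.9, 15.8 and 15.5 CPM in Wnt1 and 10.2, 12.9 and 12.4 CPM in control. All Wnt1 values lay above all control values, with a log2 fold change of 0.41 ± 0.14 (adjusted p = 0.328). For Wnt1_KP6 against control it was 0.33 ± 0.14 (adjusted p = 0.309), and for Wnt1_KP6 against Wnt1 -0.08 ± 0.14 (adjusted p = 1). On the other row the log2 fold change was -0.03 ± 0.19 in Wnt1 against control (adjusted p = 0.982) and -0.19 ± 0.19 in Wnt1_KP6 against control (adjusted p = 0.699), the opposite sign in both. In replicates 2 and 3 alone each row passed against control in Wnt1_KP6, the larger upward (0.32 ± 0.11, adjusted p = 0.0281) and the other downward (-0.43 ± 0.11, adjusted p = 0.00587). The rows summed gave 25.7, 25.7 and 26.1 CPM in Wnt1_KP6, 27.8, 30.4 and 29.2 CPM in Wnt1 and 20.3, 29.3 and 28.5 CPM in control, and their log2 fold change in Wnt1_KP6 against control was 0.07 ± 0.15 (adjusted p = 0.881). In Wnt1 against control it was 0.19 ± 0.15 (adjusted p = 0.705).

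CCND3 (cyclin D3, ENSG00000112576, chromosome 6, 41934933 to 42050357, minus strand) had 79.0, 68.8 and 62.8 CPM in Wnt1_KP6, 79.5, 73.2 and 72.7 CPM in Wnt1 and 65.7, 61.4 and 71.0 CPM in control. The Wnt1 libraries lay just above the control libraries without overlap, while Wnt1_KP6 overlapped both. On the log2 scale the difference was 0.16 ± 0.09 in Wnt1_KP6 against control (adjusted p = 0.444), -0.05 ± 0.09 in Wnt1_KP6 against Wnt1 (adjusted p = 1) and 0.21 ± 0.09 in Wnt1 against control (adjusted p = 0.446). None of these passed in replicates 2 and 3 alone.

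Scaled to length, CCND1 and CCND3 made up most D-type cyclin RNA in these cells. CCND1 held 54.9%, 44.8% and 44.5% of the summed FPKM of the 3 D-type cyclins in Wnt1_KP6, 53.2%, 42.2% and 41.3% in Wnt1 and 55.2%, 42.2% and 38.2% in control. Its mean share was 48.1% ± 5.90 in Wnt1_KP6, 45.6% ± 6.66 in Wnt1 and 45.2% ± 8.87 in control (SD, n = 3 each). Replicate 1 was the highest of each group and the groups overlapped, so the mix of D-type cyclins differed by replicate number more than by treatment. CCND3 held 41.1% to 56.2% and CCND2, counted on the larger row, 3.69% to 6.51%. With its other row, which is left out of these shares, CCND2 summed to 4.52 to 6.84 FPKM. The 3 genes summed to 80.0 ± 16.8 FPKM in Wnt1_KP6, 81.3 ± 14.7 FPKM in Wnt1 and 68.5 ± 10.6 FPKM in control.

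CDK4 and CDK6 are the catalytic partners of the D-type cyclins. CDK4 (ENSG00000135446, chromosome 12, 57747727 to 57756013, minus strand) had 338, 313 and 314 CPM in Wnt1_KP6, 333, 355 and 359 CPM in Wnt1 and 345, 287 and 295 CPM in control. The spread was narrow, and control replicate 1 sat above all Wnt1_KP6 libraries while control replicates 2 and 3 were the lowest of the 9. Fold changes (log2) were 0.14 ± 0.09 in Wnt1_KP6 against control (adjusted p = 0.522), -0.07 ± 0.09 in Wnt1_KP6 against Wnt1 (adjusted p = 1) and 0.20 ± 0.09 in Wnt1 against control (adjusted p = 0.448). Without replicate 1 CDK4 passed against control in Wnt1_KP6 (0.21 ± 0.06, adjusted p = 0.00964) and in Wnt1 (0.32 ± 0.06, adjusted p = 0.000729), whereas the replicate 1 differences were 0.01 and -0.02. The antisense neighbour TSPAN31 covers 43.2% of the CDK4 exon bases and no CDK4 count was whole, so their reads may not be fully told apart. TSPAN31 averaged 20.7 ± 1.81 CPM in Wnt1_KP6, 21.4 ± 2.37 CPM in Wnt1 and 20.8 ± 1.82 CPM in control, well below CDK4.

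The motif search covered 9 windows of 6 of the 10 genes, and no window of the other genes was searched. The CDK4 promoter window is printed because it held more motif matches than any other member window searched. It lies at chr12:57752261-57752560 (GRCh38.p14, minus strand, 66.0% G and C), and capitals mark 3 copies of the E-box CACGTG, a palindrome bound by MYC-MAX dimers. Counted from 1 at the 5′ end, they cover bases 35 to 40, 55 to 60 and 150 to 155, so that the copy nearest the start begins 101 bases before it.
CDK4: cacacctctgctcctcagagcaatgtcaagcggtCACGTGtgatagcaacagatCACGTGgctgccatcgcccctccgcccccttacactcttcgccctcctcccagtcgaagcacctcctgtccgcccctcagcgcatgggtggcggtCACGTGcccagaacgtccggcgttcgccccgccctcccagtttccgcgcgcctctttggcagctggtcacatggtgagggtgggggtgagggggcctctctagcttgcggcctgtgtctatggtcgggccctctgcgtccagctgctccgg
Other matches in the windows searched were 1 E-box in a CDK6 window (bases 281 to 286) and 1 FOXO site in a CCND3 window (bases 249 to 255). A match in letters is a description and shows no binding.

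CDK6 (ENSG00000105810, chromosome 7, 92604921 to 92836594, minus strand) had 175, 234 and 254 CPM in Wnt1_KP6, 186, 246 and 235 CPM in Wnt1 and 188, 366 and 304 CPM in control. Replicate 1 was at about the same level in all 3 groups, and the groups parted only in replicates 2 and 3, where control was higher. The log2 fold change was -0.29 ± 0.26 in Wnt1_KP6 against control (adjusted p = 0.663), 0.05 ± 0.26 in Wnt1_KP6 against Wnt1 (adjusted p = 1) and -0.34 ± 0.26 in Wnt1 against control (adjusted p = 0.692). In replicates 2 and 3 alone it passed against control in Wnt1_KP6 (-0.35 ± 0.08, adjusted p = 0.00257) and in Wnt1 (-0.45 ± 0.08, adjusted p = 0.000635), against replicate 1 differences of -0.07 and 0.02. CDK4 exceeded CDK6 in every library on the FPKM scale, by 17.5, 12.6 and 11.3 times in Wnt1_KP6, 16.1, 13.2 and 13.9 times in Wnt1 and 16.2, 6.85 and 8.71 times in control. The lowest ratios were those of control replicates 2 and 3.

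**Figure D2:**
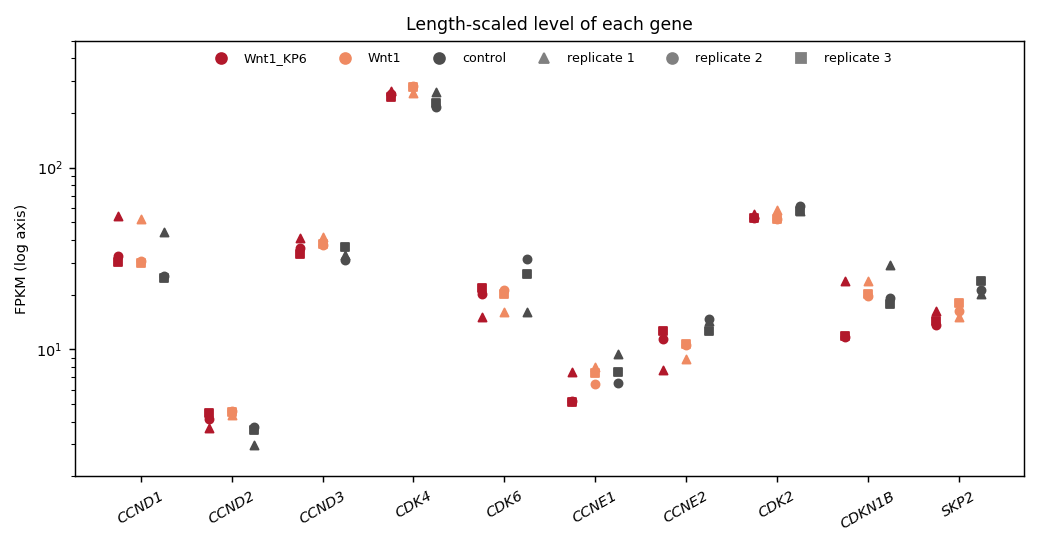
FPKM of the 10 genes (log axis) in each library, with colours for Wnt1_KP6, Wnt1 and control and shapes for the replicate number. CDK4 lies highest, at 216 to 280.2 FPKM, and CCND2, on its larger row, lowest, at 2.97 to 4.60 FPKM. The gap between CDK4 and CCND2 is thus far wider than the gap between groups for any gene. Other genes lie close together, such as SKP2 and CDKN1B, with control means of 21.7 and 22.0 FPKM.

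The E-type cyclins act after the D-type cyclins, late in G1. CCNE1 (cyclin E1, ENSG00000105173, chromosome 19, 29811898 to 29824308, plus strand) had 12.6, 8.64 and 8.96 CPM in Wnt1_KP6, 13.5, 10.99 and 12.1 CPM in Wnt1 and 15.7, 10.8 and 12.01 CPM in control. The groups overlapped, with Wnt1_KP6 the lowest library at each replicate number. In log2 terms CCNE1 differed by -0.27 ± 0.17 in Wnt1_KP6 against control (adjusted p = 0.495), -0.23 ± 0.17 in Wnt1_KP6 against Wnt1 (adjusted p = 1) and -0.04 ± 0.17 in Wnt1 against control (adjusted p = 0.959). None passed in replicates 2 and 3 alone either.

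CCNE2 (cyclin E2, ENSG00000175305, chromosome 8, 94879770 to 94896678, minus strand) had 17.7, 24.4 and 27.5 CPM in Wnt1_KP6, 19.1, 25.5 and 23.5 CPM in Wnt1 and 34.4, 34.9 and 28.4 CPM in control. All 6 libraries given the Wnt1 plasmid lay below all 3 control libraries, and the gap was widest in replicate 1. The log2 fold change was -0.40 ± 0.20 in Wnt1_KP6 against control (adjusted p = 0.366), with -0.91, -0.40 and 0.04 by replicate number, so that TMM scaling turned the small gap of replicate 3. In Wnt1 against control it was -0.49 ± 0.20 (adjusted p = 0.392), with -0.81, -0.41 and -0.26. Of these, the Wnt1 difference passed in replicates 2 and 3 alone (-0.35 ± 0.11, adjusted p = 0.0270) and the Wnt1_KP6 difference was -0.19 ± 0.11 there (adjusted p = 0.18). Wnt1_KP6 against Wnt1 gave 0.09 ± 0.20 (adjusted p = 1). The gene INTS8 covers part of the 37.1% of CCNE2 exon bases that overlap an opposite-strand gene, and no CCNE2 count was whole. INTS8 averaged 84.1 ± 1.96 CPM in Wnt1_KP6, 85.5 ± 3.56 CPM in Wnt1 and 94.1 ± 11.9 CPM in control, above CCNE2 and also highest in control, and its part in the CCNE2 values was not tested. The ratio of CCNE1 to CCNE2 in FPKM was 0.968, 0.457 and 0.404 in Wnt1_KP6, 0.904, 0.612 and 0.692 in Wnt1 and 0.655, 0.443 and 0.597 in control, below 1 in every library.

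CDK2 is the kinase that the E-type cyclins switch on (ENSG00000123374, chromosome 12, 55966769 to 55972784, plus strand). It had 121, 113 and 113 CPM in Wnt1_KP6, 127, 111 and 112 CPM in Wnt1 and 128, 135 and 128 CPM in control. All 6 libraries with the plasmid lay below the control libraries, but for Wnt1 replicate 1 the gap was under 1 CPM and turned with TMM scaling (0.02 for replicate 1 of Wnt1 against control). CDK2 had a log2 fold change of -0.09 ± 0.08 in Wnt1_KP6 against control (adjusted p = 0.639), 0.04 ± 0.08 in Wnt1_KP6 against Wnt1 (adjusted p = 1) and -0.13 ± 0.08 in Wnt1 against control (adjusted p = 0.591), and the last passed in replicates 2 and 3 alone (-0.21 ± 0.06, adjusted p = 0.0233). The opposite-strand neighbours LTO1 of CCND1 and PMEL of CDK2 cover 10.3% of CCND1 and, with another gene, 16.8% of CDK2 exon bases. Expected counts were whole in 7 libraries for CCND1 and in 9 for CDK2.

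**Figure D3:**
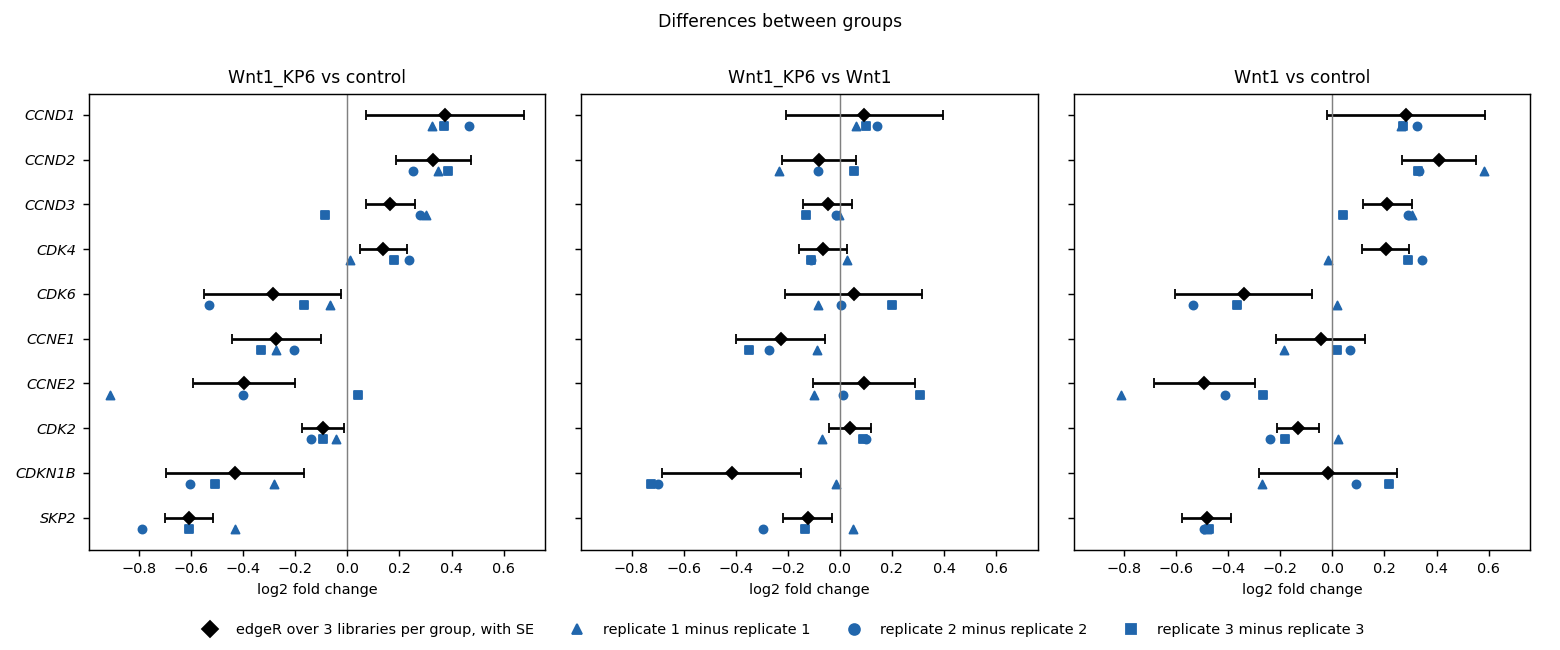
Log2 fold changes of the 10 genes in Wnt1_KP6 against control (left), Wnt1_KP6 against Wnt1 (middle) and Wnt1 against control (right). Black diamonds with bars give edgeR's value ± SE over 3 libraries a group, and blue triangles, circles and squares give the difference between replicates 1, 2 and 3 of both groups. SKP2 lies left of 0 at all replicate numbers in both comparisons with control, and CDKN1B in the middle panel splits into -0.01 for replicate 1 and -0.70 and -0.72 for replicates 2 and 3.

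Counted together in Wnt1_KP6 against control, 4 of the 10 genes had a positive and 6 a negative log2 fold change, with a median of -0.18, against -0.0051 over all tested genes. The sign was the same at all 3 replicate numbers for 8 of the 10, with CCND1, CCND2 and CDK4 higher and SKP2, CDKN1B, CCNE1, CDK2 and CDK6 lower, against 33.8% of all tested genes. Groups did not overlap for 3 genes, all lower (SKP2, CCNE2 and CDK2). Of all tested genes 11.8% were lower and 6.01% higher without overlap. Overlap was judged on CPM before TMM scaling in all comparisons, and with that scaling CCNE2 differed by 0.04 at replicate 3. The replicate block called SKP2 alone of the 10 and 1.13% of all genes, and DESeq2 likewise SKP2 and 5.13% of all. In replicates 2 and 3 alone 6 of the 10 passed, with CCND1, CCND2 and CDK4 higher and SKP2, CDKN1B and CDK6 lower, but there 40.6% of all genes passed. The 6 of 10 are to be read against that share. CCND2 is counted on its larger row in all comparisons. The row GENCODE names CCND2 passed downward here (-0.43 ± 0.11, adjusted p = 0.00587). Its values by replicate number were 0.41, -0.39 and -0.47.

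In Wnt1_KP6 against Wnt1 the median was -0.06, against 0.0011 over all tested genes, with 4 values positive and 6 negative. No gene of the 10 kept the groups apart without overlap, where 1.66% of all tested genes were higher and 5.27% lower. The sign was the same at all replicate numbers for 4 of the 10 and for 28.0% of all. CDKN1B was the single gene of the 10 to pass in replicates 2 and 3 alone, where 8.62% of all did, and none passed with the replicate block (0% of all) or by DESeq2 (0.144% of all).

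In Wnt1 against control the median was -0.03, against -0.0034 over all tested genes, with 4 values positive and 6 negative. The groups did not overlap for CCND2 and CCND3, which were higher (7.34% of all). Nor did they overlap for SKP2, CCNE2 and CDK2, which were lower (9.12% of all). On the row GENCODE names CCND2 the groups overlapped, and with TMM scaling CDK2 turned to 0.02 at replicate 1. For 5 of the 10 the sign was the same at all replicate numbers, against 36.4% of all. DESeq2 called SKP2 (2.32% of all), the replicate block none of the 10 (0.722% of all), and replicates 2 and 3 alone 7 of the 10 (31.6% of all), with CCND1, CCND2 and CDK4 higher and SKP2, CCNE2, CDK2 and CDK6 lower. In replicates 2 and 3 alone the row GENCODE names CCND2 was at -0.18 ± 0.11 (adjusted p = 0.231). Both comparisons with control use the same control libraries, so their values are set side by side and are not independent of each other.

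The wider G1 network was read in 50 genes of 5 groups, of which 48 were tested, while the cyclin A gene CCNA1 and the transcription factor gene FOXO1 were too low. None of the 48 passed in any comparison over all libraries. The median log2 fold change was 0.04 in Wnt1_KP6 against control, 0.02 in Wnt1_KP6 against Wnt1 and 0.01 in Wnt1 against control. An unadjusted p under 0.05 was found for 6 of the 48 in Wnt1_KP6 against control (2076 of all 13153 tested genes), for 1 in Wnt1_KP6 against Wnt1 (363 of all) and for 4 in Wnt1 against control (1475 of all), in each case a smaller share than among all genes. In replicates 2 and 3 alone 13 of the 48 passed upward and 7 downward in Wnt1_KP6 against control, where 40.6% of all genes passed. There 5 passed upward and 1 downward in Wnt1_KP6 against Wnt1 (8.62% of all), and 9 upward and 6 downward in Wnt1 against control (31.6% of all). The counts are to be read against those shares.

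The CDK inhibitors other than p27 showed the widest values of the 5 groups. Their medians were 0.31 in Wnt1_KP6 against control, 0.06 in Wnt1_KP6 against Wnt1 and 0.27 in Wnt1 against control, over 6 genes. CDKN1A (p21, a p53 target that inhibits CDK2) had 55.5, 198.9 and 185.8 CPM in Wnt1_KP6, 55.0, 63.3 and 69.0 CPM in Wnt1 and 48.0, 26.6 and 29.3 CPM in control. The Wnt1_KP6 libraries 2 and 3 stood far above the rest, and replicate 1 was close in all 3 groups. The log2 fold change was 2.19 ± 0.46 in Wnt1_KP6 against control (adjusted p = 0.0866, and 1.81e-05 by DESeq2) and 1.31 ± 0.45 in Wnt1_KP6 against Wnt1 (adjusted p = 1), with replicate 1 differences of 0.24 and 0.02. In replicates 2 and 3 alone they were 2.88 (adjusted p = 7.94e-12) and 1.62 (adjusted p = 3.56e-09). These p-values leave out the replicate in which the groups were close, and 40.6% and 8.62% of all genes passed there. CDKN2B (p15, an inhibitor of CDK4 and CDK6) had 11.3, 28.2 and 31.2 CPM in Wnt1_KP6, 11.2, 19.2 and 20.6 CPM in Wnt1 and 9.40, 8.98 and 9.49 CPM in control. It too was nearly level in replicate 1 and ordered Wnt1_KP6, Wnt1, control in the others, with 1.44 ± 0.39 in Wnt1_KP6 against control (adjusted p = 0.144, and 0.00583 by DESeq2) and 0.90 ± 0.39 in Wnt1 against control (adjusted p = 0.431). CDKN2C (p18), named after its values were seen, went the other way at 22.3, 24.7 and 23.2 CPM in Wnt1_KP6, 21.9, 31.7 and 32.5 CPM in Wnt1 and 31.8, 37.8 and 42.3 CPM in control (-0.59 ± 0.18 in Wnt1_KP6 against control, adjusted p = 0.169). The replicates with the lowest CDKN1B, Wnt1_KP6 2 and 3, were thus those with the highest CDKN1A and CDKN2B.

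The RB family and E2F factors, on which the G1 kinases act, centred on 0. Their medians over 13 genes were -0.0020 in Wnt1_KP6 against control, -0.01 in Wnt1_KP6 against Wnt1 and -0.03 in Wnt1 against control. E2F6, a repressor of the family, had 42.4, 55.3 and 57.0 CPM in Wnt1_KP6, 46.2, 46.5 and 42.8 CPM in Wnt1 and 53.0, 38.7 and 32.0 CPM in control, with 0.42 ± 0.19 in Wnt1_KP6 against control (adjusted p = 0.328) and 0.25 ± 0.19 in Wnt1_KP6 against Wnt1 (adjusted p = 1). E2F4, the main partner of the RB-like proteins in resting cells, had 91.1, 83.3 and 75.4 CPM in Wnt1_KP6, 90.4, 88.4 and 86.3 CPM in Wnt1 and 61.5, 74.0 and 85.1 CPM in control, with 0.29 ± 0.13 in Wnt1 against control (adjusted p = 0.439). E2F4 Wnt1 libraries lay just above control replicate 3 and E2F6 control replicate 1 was high.

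None of the 17 genes of the ubiquitin machinery that acts on p27 and the G1 cyclins passed, SKP2 itself not counted among them. They had medians of -0.03 in Wnt1_KP6 against control, 0.01 in Wnt1_KP6 against Wnt1 and -0.05 in Wnt1 against control, and a range of -0.23 to 0.21 in the first of these, against -0.61 for SKP2. The gene with the smallest p there was CUL3, a cullin scaffold whose ligases act on cyclin E, at 66.5, 68.2 and 71.4 CPM in Wnt1_KP6, 72.9, 73.4 and 72.8 CPM in Wnt1 and 91.2, 85.6 and 77.5 CPM in control (-0.22 ± 0.09, adjusted p = 0.265). AMBRA1, the adaptor that marks D-type cyclins for destruction, had 41.4, 38.2 and 36.8 CPM in Wnt1_KP6, 42.5, 39.8 and 40.8 CPM in Wnt1 and 36.0, 36.3 and 37.8 CPM in control, with 0.19 ± 0.08 in Wnt1 against control (adjusted p = 0.416). FBXO31, an F-box protein for cyclin D1, differed by 0.13 ± 0.11 in Wnt1_KP6 against Wnt1 (adjusted p = 1). All CUL3 values with the plasmid lay below those of control, and the Wnt1 values of AMBRA1 lay above those of control.

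CDK activation and cyclin A had medians of 0.10 in Wnt1_KP6 against control, 0.06 in Wnt1_KP6 against Wnt1 and 0.01 in Wnt1 against control, over 6 tested genes. CCNA2 (cyclin A2, which takes over CDK2 in S phase) had 103, 93.4 and 99.9 CPM in Wnt1_KP6, 106, 119 and 119.7 CPM in Wnt1 and 118, 157 and 143 CPM in control. It was lower at every replicate number in Wnt1_KP6 than in Wnt1 and in Wnt1 than in control, with -0.42 ± 0.12 in Wnt1_KP6 against control (adjusted p = 0.156, and 0.0402 by DESeq2), -0.17 ± 0.12 in Wnt1_KP6 against Wnt1 (adjusted p = 1) and -0.25 ± 0.12 in Wnt1 against control (adjusted p = 0.476).

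Upstream regulators of G1 genes had medians of 0.18 in Wnt1_KP6 against control, 0.05 in Wnt1_KP6 against Wnt1 and 0.20 in Wnt1 against control, over 6 tested genes. MYC, a transcription factor that drives growth and is itself known as a Wnt target, had 203, 586 and 548 CPM in Wnt1_KP6, 207, 312 and 325 CPM in Wnt1 and 133, 239 and 265 CPM in control. Wnt1_KP6 replicates 2 and 3 were the highest of the 9 libraries, and the control library was the lowest at each replicate number. The log2 fold change was 1.16 ± 0.44 in Wnt1_KP6 against control (adjusted p = 0.245, and 0.0488 with a replicate block) and 0.74 ± 0.43 in Wnt1_KP6 against Wnt1 (adjusted p = 1), with replicate 1 differences of 0.64 and -0.02. MAX, its dimer partner, had 36.2, 30.1 and 32.4 CPM in Wnt1_KP6, 39.9, 36.6 and 36.8 CPM in Wnt1 and 31.8, 32.6 and 31.2 CPM in control, with 0.27 ± 0.08 in Wnt1 against control (adjusted p = 0.283) and -0.15 ± 0.08 in Wnt1_KP6 against Wnt1 (adjusted p = 1). The Wnt1 libraries of MAX all lay above the control libraries.

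**Figure D4:**
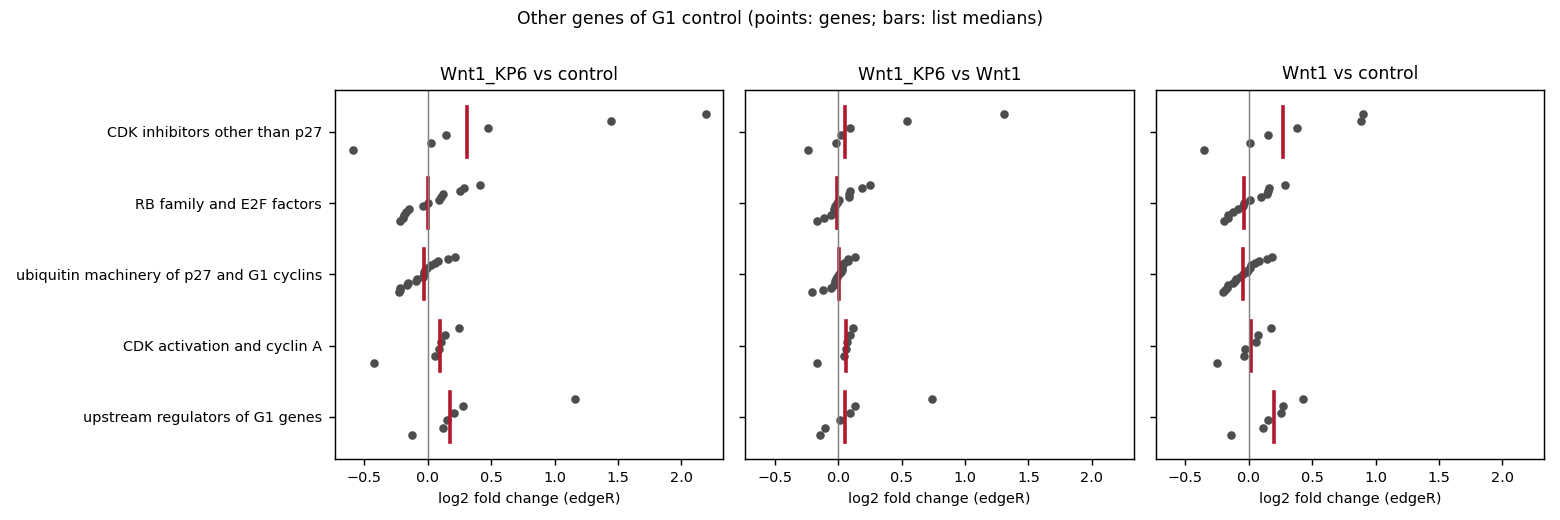
Log2 fold changes of the 48 other tested G1 genes by group of genes, in Wnt1_KP6 against control (left), Wnt1_KP6 against Wnt1 (middle) and Wnt1 against control (right), from edgeR, with points for genes and red bars for the median of each group of genes. The point farthest right in the left and middle panels is CDKN1A, at 2.19 and 1.31, and the ubiquitin genes stay between -0.23 and 0.21 in the left panel.

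The genes whose level followed SKP2 most closely over the 9 libraries, by Pearson's r of log2 CPM, were TRIM59 (r = 0.98), GTF2H5 (r = 0.97) and DICER1 (r = 0.96). TRIM59 encodes a tripartite motif protein, GTF2H5 a subunit of the repair and transcription factor TFIIH, and DICER1 the nuclease that cuts miRNA precursors. TRIM59 had 77.0, 63.5 and 68.9 CPM in Wnt1_KP6, 75.5, 79.2 and 77.2 CPM in Wnt1 and 100.1, 119.0 and 105.3 CPM in control, and DICER1 75.0, 60.7 and 65.5 CPM in Wnt1_KP6, 75.3, 85.4 and 73.7 CPM in Wnt1 and 101.2, 111.9 and 101.9 CPM in control. Like SKP2, both were lower in all libraries with the plasmid than in control. For CDKN1B they were the zinc finger genes ZNF230 (r = 0.99) and ZNF555 (r = 0.98) and LRIG2 (r = 0.98), a membrane protein gene. All of these were lowest in Wnt1_KP6 replicates 2 and 3, where LRIG2 had 24.1 and 23.5 CPM, against 40.1 CPM in Wnt1_KP6 replicate 1. For CCND1 they were THEMIS2 (r = 0.99), the cell death gene BIK (r = 0.99) and the kinase gene DAPK1 (r = 0.99). DAPK1 had 153.8, 105.8 and 105.3 CPM in Wnt1_KP6, 147.8, 104.7 and 107.2 CPM in Wnt1 and 140.9, 95.1 and 99.7 CPM in control, so that here too replicate 1 was the highest of each group. These genes were picked as the highest of 13153, the 9 libraries share groups and replicate numbers, and the correlations are given as a description with no test.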

How the data were processed

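Per the file headers, the authors deposited for every gene and library an expected count, which is an estimated count that can be fractional (87.6% of them were whole), and a length-scaled FPKM. RSEM, HISAT2, StringTie 1.3.1, Bowtie2 2.2.8 and fastp 0.18.0, with hg38, stand in the submitters' processing notes. Neither the part each played nor the annotation is given in the sources used here. The library kit is not stated to keep strand, so it is not known whether reads of a gene and of its antisense neighbour were told apart.

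Counts were rounded, filtered with filterByExpr (minimum count 10, minimum total 15) and tested in all 9 libraries by edgeR 4.0.16 (R 4.3.3, TMM, robust quasi-likelihood, 3 group means, no block), two-sided, with Benjamini-Hochberg adjustment over 13153 genes at 0.05. The procedure was checked on simulated data with the same spread for all genes and no replicate effect. That check does not cover the gap between replicate 1 and the rest. The SE follows from the fold change and its F statistic. CPM are expected counts scaled by the library total, means are ± SD over 3 libraries, and differences by replicate number are of TMM-scaled log2 CPM (prior count 2). Treatment labels gave the groups, and titles the replicate numbers. Between groups, libraries with the same number had correlated deviations from their group means (correlations of 0.11 to 0.672, all over 0.1). Libraries with different numbers had -0.553 to 0.398, so the ranges overlapped. Wnt1_KP6 replicate 3 correlated at 0.11 with control replicate 3 and at 0.252 with control replicate 2. The numbers were taken as pairing for the fit with a replicate block, but replicates 2 and 3 did not part clearly into pairs. DESeq2 1.42.0 and limma 3.58.1 on log2 FPKM with a pseudocount of 1 or 0.1 were alternatives. Gene IDs were matched to GENCODE 29 (20171 of 20323), with coordinates 1-based, and promoters were taken from RefSeq. The 10 genes, the pathway and marker lists, the tests and the alternatives were chosen with earlier results of these data known. Besides the 10 genes, the text names in each list the gene with the smallest p per comparison, and for SKP2, CDKN1B and CCND1 the 3 genes with the highest correlation.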

Additional observations from a re-analysis of the deposited data

How the results depend on the processing

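The number of calls depended on the fit and on the libraries used, and the cause was not tested. Genes called in Wnt1_KP6 against control numbered 30, against 149 with a replicate block, 675 by DESeq2, 11 and 19 by limma on log2 FPKM with a pseudocount of 1 and 0.1, 0 with the 2 groups alone and 5293 in replicates 2 and 3 alone, and 0 to 1198 without single replicates, with the most without control replicate 1. In Wnt1_KP6 against Wnt1 they numbered 0, against 19 by DESeq2, 1124 in replicates 2 and 3 and 0 to 214 without single replicates, with the most without Wnt1_KP6 replicate 1. In Wnt1 against control they numbered 16, against 95 with the block, 305 by DESeq2, 9 with the 2 groups alone, 4115 in replicates 2 and 3 and 0 to 879 without single replicates, with the most without control replicate 1.

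Of the 10 genes, 1 was called in Wnt1_KP6 against control, against 0 by limma with either pseudocount or with the 2 groups alone, 6 in replicates 2 and 3, and 0 to 1 without single replicates. In Wnt1_KP6 against Wnt1 it was 0, against 1 in replicates 2 and 3. In Wnt1 against control it was 0, against 1 by DESeq2, 7 in replicates 2 and 3 and 0 to 1 without single replicates. Of the 48 other G1 genes, 0 were called in any comparison. The alternatives gave 1 with the block, 3 by DESeq2, 20 in replicates 2 and 3 and 0 to 5 without single replicates in Wnt1_KP6 against control. They gave 6 and 0 to 1 in Wnt1_KP6 against Wnt1, and 15 and 0 to 2 in Wnt1 against control, for replicates 2 and 3 and for single replicates left out. By CPM, CCND1 held 65.3% of the D-type cyclins in Wnt1_KP6, 62.8% in Wnt1 and 62.0% in control. The replicate block changed no call among the 10 genes.

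Signs turned for these values. In Wnt1 against control CDKN1B was 0.022 with the block, 0.16 in replicates 2 and 3 and -0.14 to 0.23 without single replicates, CCNE1 was 0.045 in replicates 2 and 3 and -0.15 to 0.11, and CCND1 -0.0095 to 0.59 without single replicates. In Wnt1_KP6 against Wnt1 the values without single replicates were -0.17 to 0.39 for CCND1, -0.16 to 0.023 for CCND2, -0.10 to 0.010 for CCND3, -0.063 to 0.28 for CCNE2 and -0.077 to 0.23 for CDK6. There, by limma with a pseudocount of 1 and of 0.1, CDK2 was -0.0103 and -0.0105 and CDK6 -0.0129 and -0.0139. The CCND2 rows were summed after the data were seen.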
